A study of Homo sapiens with 2 samples.

Results

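The desmosome genes DSC2, DSC3, DSG2, DSG3, DSP, JUP, PPL and PKP1 were examined for MLL3 and GRHL2 binding in KYSE510, an esophageal squamous cell carcinoma line. Regions of each peak list were taken when their summit lay in 1 of 5 windows of hg19. The window of the desmocollin and desmoglein genes was chr18:28550000-29150000. The other windows were DSP, JUP, PPL and PKP1 with 25 kb on each side, and the positions of these 4 genes were known to the nearest 1 kb. The windows held 13 of the 12150 MLL3 regions and 68 of the 152864 GRHL2 regions on chromosomes 1 to 22, X and Y. They spanned 980 kb in all.

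The series has 2 libraries of this line, grown in serum-containing medium with no treatment named, 1 precipitated with an MLL3 antibody and 1 with a GRHL2 antibody, each compared with input. There was no replicate, so no value has an error between samples and no test was made. MLL3 (KMT2C) methylates histones at enhancers. GRHL2 binds DNA as a Grainyhead-like factor and acts in epithelia. Each region has a fold enrichment (ChIP signal over local background at the summit) and a −log10 q, both set by the authors' peak caller. The GRHL2 list was deposited at a much looser threshold than the MLL3 list, so the folds and counts of 1 list are read against that list only. Gene expression was not analysed here, and RNA markers that could check the cell type were therefore not at hand.

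Desmosomes are junctions that tie the keratin filaments of neighbouring epithelial cells together. Desmogleins (DSG) and desmocollins (DSC) are cadherins that meet in the gap between the cells. Plakoglobin (JUP) and plakophilins (PKP) bind the cadherin tails, and desmoplakin (DSP) and periplakin (PPL), both plakins, reach from the plaque to the filaments. DSG3, DSC3 and PKP1 are typical of stratified epithelia such as skin and esophagus, whereas DSG2 and DSC2 are found more widely.

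All 5 windows held at least 1 MLL3 region and at least 1 strong GRHL2 region. The share of windows around other genes that hold such regions was not determined. The highest GRHL2 fold was 97.5 near DSP, 92.4 near PPL, 84.5 in JUP, 65.2 in the cadherin cluster and 45.0 in PKP1, and each of these 5 regions overlapped an MLL3 region. In the whole list, 1158 GRHL2 regions reached a fold of 45.0 or more and 86.9% of them overlapped an MLL3 region, so 5 of 5 is near the background. The 13 MLL3 regions had folds from 4.86 to 18.2 with a median of 7.08, against 6.49 over the list, and 7 of them were above the list's median. The interval of the 7.08, 5.91 to 9.1, includes the 6.49 of the list. The leading GRHL2 regions ranked between 169 and 1158 of 152864.

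Most MLL3 regions in these windows lay on a GRHL2 region. Of the 13 MLL3 regions, 12 overlapped a GRHL2 region (92.3%, exact Clopper-Pearson 95% interval 64.0 to 99.8%), against 85.0% of the whole MLL3 list. When the GRHL2 region had to reach a −log10 q of 2, the count was 11 of 13 against 68.7%. The interval of the 12 of 13 includes its background of 85.0%, treats regions as independent and covers the counting of regions only. No interval was computed for the 11 of 13. In the shared regions the MLL3 summit was a median of 46.5 bp from the nearest GRHL2 summit, and 8 of 12 (66.7%) were within 100 bp. Over the shared regions of the list the median was 104 bp, and 49.1% were that close. The interval of the 46.5 bp, 18.0 to 139 bp, includes the 104 bp of the list. For the 8 of 12 no interval was computed. The 12 shared MLL3 regions lay on 10 GRHL2 regions, because 1 of these carried 3.

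MLL3 regions were 3.26 times as dense in the windows as over the list (13.3 against 4.06 per Mb). All listed GRHL2 regions were 1.36 times as dense (69.4 against 51.1 per Mb), and those that reached a −log10 q of 2 were 3.35 times as dense (33.7 against 10.1 per Mb). The latter made up 33 of the 68 GRHL2 regions, 48.5% against 19.7% of the whole list. GRHL2 regions with a q above 0.05 had a density of 28.6 per Mb against 35.2. MLL3 regions covered 0.563% of the windows against 0.178% of the genome spanned by the lists, and GRHL2 regions 4.75% against 2.48%. The genome-wide densities include gene deserts and other stretches without genes, and whether windows around other genes have a similar density was not tested.

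**Figure D1:**
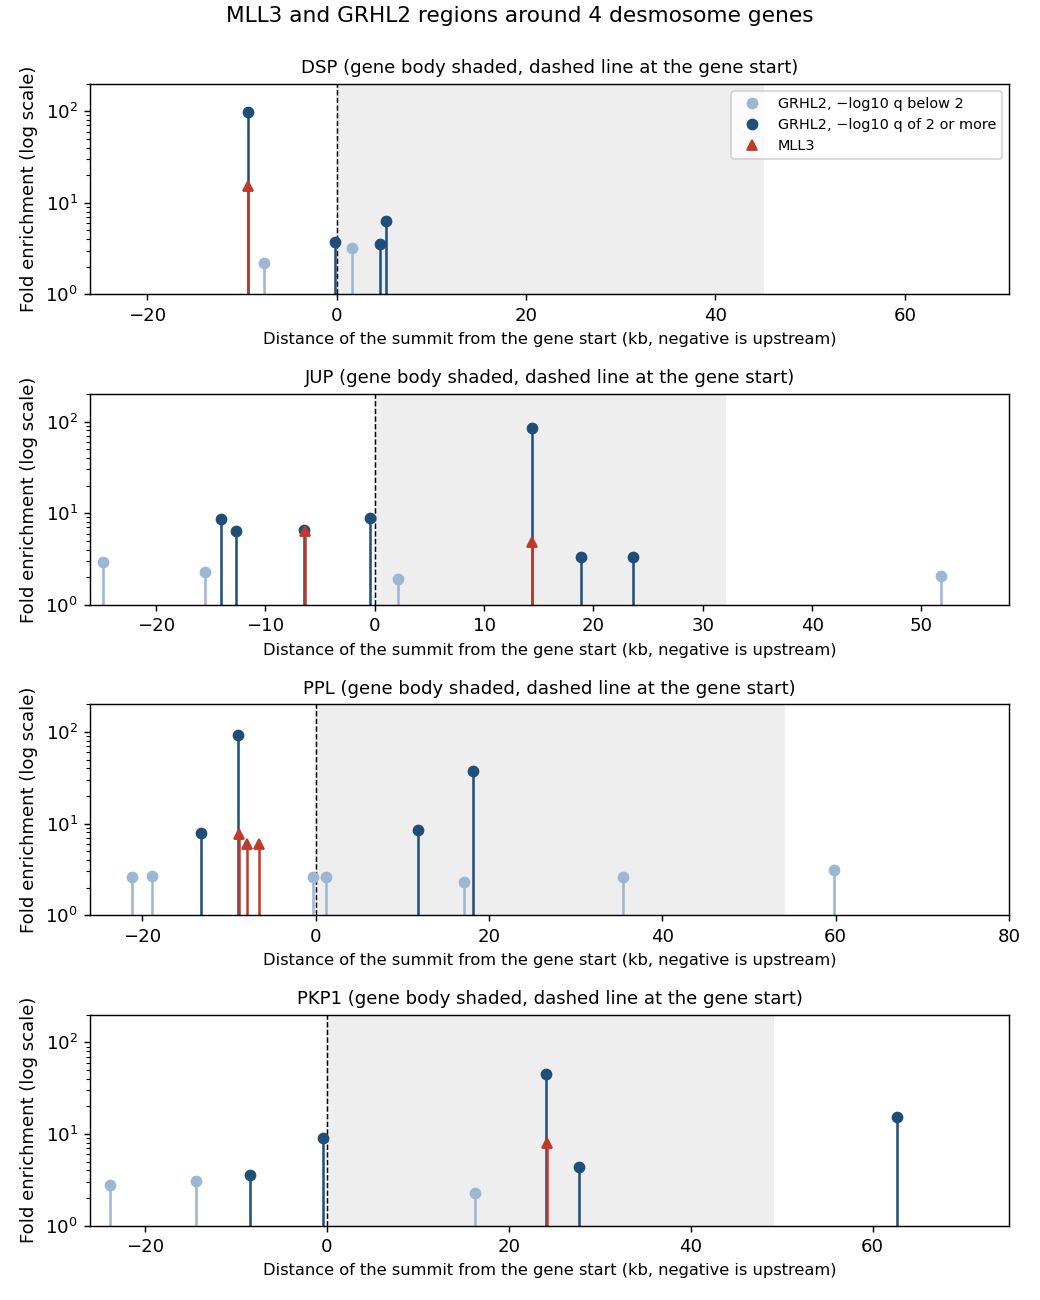
Regions around DSP, JUP, PPL and PKP1. Each stem is a region at the distance of its summit from the gene start in kb (negative is upstream, gene body shaded), and its height is the fold enrichment in its own list on a log axis; MLL3 regions are red triangles, GRHL2 regions blue circles, pale where the −log10 q is below 2. The MLL3 stems stand 6 to 24 kb from the gene starts, and the tallest GRHL2 stem of each gene has an MLL3 stem beside it.

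Desmoplakin, the plakin that holds the keratin filaments, had the GRHL2 region of highest fold, although those of JUP and PPL had a higher −log10 q. It lay 9 kb upstream of the DSP start (chr6:7531470-7533907, fold 97.5, −log10 q 464), was 2438 bp wide and ranked 169 by fold in its list. The only MLL3 region of the window lay inside it (chr6:7532469-7532954, fold 15.1, −log10 q 31.5), with 17 bp between the summits. That MLL3 fold was higher than that of 92.3% of the MLL3 list. The other 5 GRHL2 regions were weak, with folds from 2.20 to 6.36, and the highest of them (chr6:7546880-7547500) was 5 kb inside the gene. No region of either list lay farther into the gene than this region or downstream of the gene within the window. Just outside the window, 11.0 kb beyond its upstream edge, a further MLL3 region of similar strength (chr6:7505402-7506233, fold 14.6) overlapped a GRHL2 region of fold 8.80.

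Plakoglobin had a strong GRHL2 region with little MLL3. In the JUP gene body, 14 kb from the start, GRHL2 reached a fold of 84.5 (chr17:39927846-39930153, −log10 q 565, rank 298). The MLL3 region in it (chr17:39928550-39928744) had a fold of 4.86, although its summit was 18 bp from that of GRHL2. Its width of 195 bp was the smallest in the MLL3 list, a minimum shared with other regions such as chr18:28567554-28567748 in the cluster. Only 16.3% of the MLL3 list had a lower fold. Of the 1153 MLL3 regions on GRHL2 regions with a fold of 45.0 or more, 4.68% had a lower fold than this region, and their median was 11.4 (quartiles 7.36 and 17.4). The stronger MLL3 region of the window was 6 kb upstream of the start (chr17:39949023-39949869, fold 6.35, −log10 q 10.5), on a GRHL2 region of fold 6.48 with summits 134 bp apart. JUP was the only window whose highest MLL3 region was not on its highest GRHL2 region. Farther upstream, at 13 and 14 kb, GRHL2 regions of fold 6.40 (chr17:39955484-39955987) and 8.64 (chr17:39956466-39958149) had no MLL3 region. The next protein-coding gene on that side in RefSeq is P3H4, and position alone does not tell which gene a region acts on. An MLL3 region of fold 8.25 (chr17:39882839-39883137) lay 3.04 kb outside the downstream edge.

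Periplakin had 3 MLL3 regions on 1 wide GRHL2 region. This GRHL2 region, 7 to 9 kb upstream of the PPL start by the MLL3 summits in it (chr16:4993154-4996864, fold 92.4, −log10 q 553), was 3711 bp wide, the widest of the set. The MLL3 regions in it were chr16:4993201-4993634 (fold 5.99), chr16:4994718-4995032 (fold 5.91) and chr16:4995700-4996196 (fold 7.60), with −log10 q of 8.28, 7.80 and 15.9. Their summits were 2424, 1070 and 48 bp from the GRHL2 summit, so the highest of them was also the closest. In the whole list 169 of the 9404 GRHL2 regions with MLL3 (1.80%) carried 3 or more. These 9404 regions had a median width of 907 bp, and the share among regions as wide as the one at PPL was not determined. Inside the gene, 18 kb from the start, GRHL2 had its strongest region without MLL3 in any window (chr16:4967949-4969486, fold 37.7, −log10 q 197). Another GRHL2 region of fold 8.45 (chr16:4974782-4975459) at 12 kb and one of fold 7.79 (chr16:4999768-5000425) at 13 kb upstream also had none.

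Plakophilin 1, the plaque protein of stratified epithelia, had its shared region within the gene. It lay 24 kb from the PKP1 start, with a GRHL2 fold of 45.0 (chr1:201276244-201277625, −log10 q 297) and an MLL3 fold of 7.87 (chr1:201276879-201277353, −log10 q 18.9). The summits were 91 bp apart. GRHL2 was also listed 63 kb from the start, beyond the end of the gene (chr1:201315042-201316082, fold 15.2, −log10 q 47.1), with no MLL3 region. No further MLL3 region was listed within 104 kb of the upper window edge or 487 kb of the lower.

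No MLL3 region was listed at the 4 gene starts, while the GRHL2 list, with its looser threshold, had regions there. The share of all gene starts with a region of either list was not determined, so these counts have no background. Within 2 kb of the starts no MLL3 region was listed, nor within 5 kb, and the closest was the region 6 kb upstream of JUP. Of the 7 MLL3 regions in these windows, 5 were upstream, 2 in a gene body and 0 downstream. GRHL2 regions lay within 2 kb of all 4 starts, and of 3 when a −log10 q of at least 2 was required. The regions at these 3 had a fold of 8.96 at PKP1 (chr1:201252335-201253034, −log10 q 23.0), 8.86 at JUP (chr17:39941590-39944129, −log10 q 25.5) and 3.78 at DSP (chr6:7541468-7542234, −log10 q 2.71). At PPL the regions had folds of 2.61 and 2.64 with a q above 0.05. Second, weaker regions near the starts of DSP and JUP had folds of 3.20 and 1.92. A start without a listed MLL3 region may still bind the protein, because the list ends at a threshold and the number of reads behind it is not known.

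The promoters of DSP, JUP and PKP1 are shown because GRHL2 regions with a −log10 q above 2 lay at these 3 gene starts. The sequences are the 250 bases before the start, from RefSeq in the build GRCh38.p14, whose coordinates differ from those of the hg19 regions. Whether each printed base lies inside the hg19 region was not determined. JUP has 2 entries, and only the first is printed. Capitals mark AACCGG, a part of the Grainyhead-like motif AACCGGTT, as the only match found among the motifs searched.
DSP, chr6:7541421-7541670, plus strand: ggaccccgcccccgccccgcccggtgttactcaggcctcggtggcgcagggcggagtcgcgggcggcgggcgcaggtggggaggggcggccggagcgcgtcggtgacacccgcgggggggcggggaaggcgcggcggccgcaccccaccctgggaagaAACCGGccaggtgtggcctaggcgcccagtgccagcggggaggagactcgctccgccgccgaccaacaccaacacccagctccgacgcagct
JUP, chr17:41786712-41786961, minus strand: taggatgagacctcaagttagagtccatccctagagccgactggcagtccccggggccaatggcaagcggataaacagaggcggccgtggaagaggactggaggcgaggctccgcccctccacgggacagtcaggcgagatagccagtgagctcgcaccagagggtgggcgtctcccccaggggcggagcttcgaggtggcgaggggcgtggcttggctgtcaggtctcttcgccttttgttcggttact
PKP1, chr1:201283256-201283505, plus strand: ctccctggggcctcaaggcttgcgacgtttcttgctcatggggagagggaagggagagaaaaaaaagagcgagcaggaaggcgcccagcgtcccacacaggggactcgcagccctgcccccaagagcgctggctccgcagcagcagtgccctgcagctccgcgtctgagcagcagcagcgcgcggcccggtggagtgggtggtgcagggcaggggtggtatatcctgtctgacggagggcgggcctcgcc

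None of the 9 promoters listed for 7 of the 8 genes held AACCGGTT, the looser AACNNGTT, which includes the former, or the AP-1 motif TGANTCA. Each of these motifs reads the same on both strands. They were in 0.117%, 3.0% and 6.57% of all 35116 promoters of the same length. AACCGG, or on the other strand CCGGTT, searched after the others had given no match, was in 2 of the 9 promoters, against 5.99% of all. It stood in DSP, where its first base was 92 bases before the start, and in DSC3, where it was 87 bases before the start. These are matches of letters only and not binding sites. The printed promoter of DSP was 78.0% G and C, that of JUP 63.6% and that of PKP1 67.6%, against a median of 58.0% over all promoters. The second entry of JUP was 66.0% G and C. PPL had no entry in the table.

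**Figure D2:**
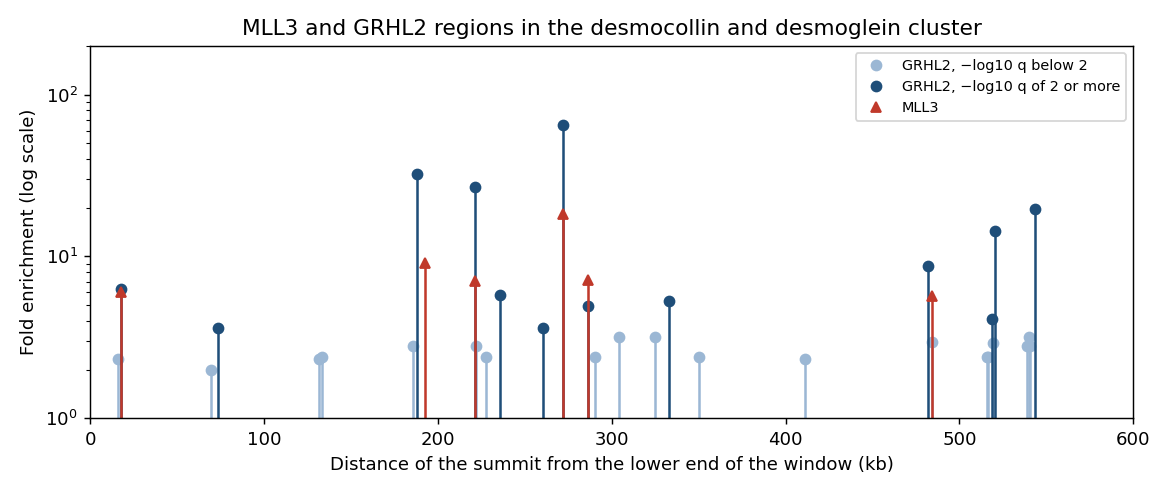
Regions in the desmocollin and desmoglein window. The horizontal axis is the distance of each summit from the lower end of the 600 kb window, and the vertical axis the fold enrichment in the region's own list on a log scale, with symbols as for the single genes. MLL3 regions gather between 192 and 286 kb, where the highest GRHL2 region also stands.

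The window of the cadherin genes held 6 MLL3 and 32 GRHL2 regions, of which 13 reached a −log10 q of 2. RefSeq gives the order of the 7 genes there as DSC3, DSC2, DSC1, DSG1, DSG4, DSG3 and DSG2, desmocollins at the lower and desmogleins at the higher coordinates. No hg19 annotation was used, so regions are given by position and were not assigned to single cadherin genes or to exons and introns. The MLL3 regions leaned to the lower side: 5 of 6 lay below the midpoint of the window, as did 8 of these 13 GRHL2 regions. All 32 GRHL2 regions were split evenly, with 16 on each side.

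The strongest region of the cluster was shared. GRHL2 had a fold of 65.2 there (chr18:28821140-28822573, −log10 q 259, rank 573) and MLL3 a fold of 18.2 (chr18:28821452-28822246, −log10 q 41.6), with 45 bp between the summits. This was the highest MLL3 fold in any of the 5 windows, above that of 95.5% of the list. It stood 272 kb into the window. Around it, 4 of the 6 MLL3 regions had their summits within 94 kb. Of these, chr18:28770881-28771201 (MLL3 fold 7.08) lay on a GRHL2 region of fold 26.9 (summits 42 bp apart). The region chr18:28835920-28836213 (MLL3 fold 7.20) lay on a weaker GRHL2 region of fold 4.97 (summits 139 bp apart).

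The remaining region of that group was the only MLL3 region without GRHL2 in any of the windows. It was chr18:28742223-28742653, with a fold of 9.10 and a −log10 q of 15.7, the third highest MLL3 fold of the 13. Of the 1823 MLL3 regions without GRHL2 in the whole list, 91.4% had a lower fold. Its nearest GRHL2 summit was 4762 bp away, in a strong GRHL2 region that itself had no MLL3 region (chr18:28737247-28738098, fold 32.4, −log10 q 103). A single-factor region of each kind thus lay side by side there. GRHL2 regions without MLL3 of at least that fold numbered 360 among 143460 in the whole list. Most of the 143460 were weak (median fold 2.69). The region ranked 1782 by fold among all GRHL2 regions, so the 360 are better set against about 1782 regions of that strength.

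The outer MLL3 regions of the cluster were weaker. At the lower end, chr18:28567554-28567748 (fold 6.07) lay on a GRHL2 region of fold 6.30 (summits 34 bp apart). Toward the upper end, chr18:29034082-29034317 (fold 5.73, −log10 q 7.14) met only a GRHL2 region with a q above 0.05 (fold 2.98, −log10 q 1.26), although the summits were 2 bp apart. No MLL3 summit was listed in the 198 kb between these upper and middle groups. The higher end of the window also held GRHL2 regions without MLL3. They were chr18:29093205-29094093 (fold 19.6, −log10 q 53.0), chr18:29070192-29071023 (fold 14.4, −log10 q 32.6) and chr18:29031134-29032086 (fold 8.79, −log10 q 14.8).

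The MLL3 regions of the cluster lay far from the next ones on both sides. The next MLL3 summit was 1822 kb below the lowest and 855 kb above the highest of the 6. Over the list, the median distance between neighbouring MLL3 summits was 62 kb, and 6.67% of neighbours were 855 kb or more apart and 1.94% were 1822 kb or more apart.

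**Figure D3:**
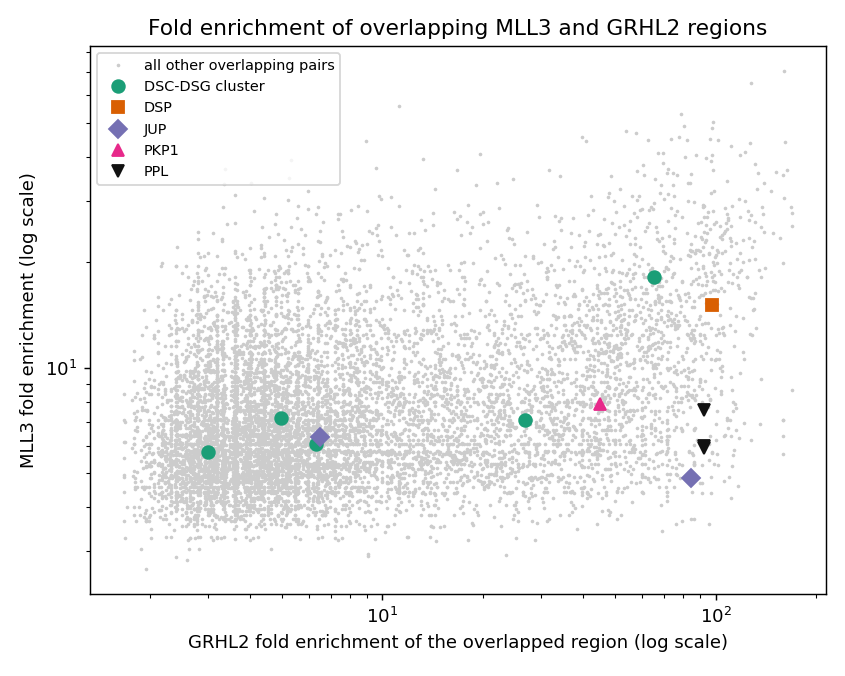
MLL3 fold against GRHL2 fold for overlapping regions, both on log axes. Each large symbol is an MLL3 region of a desmosome window plotted against the GRHL2 region it overlaps (12 pairs), and grey dots are all other overlapping pairs. The JUP and PPL regions at GRHL2 folds of 84.5 and 92.4 have MLL3 folds of 4.86 to 7.60, below the DSP region at 15.1.

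GRHL2 regions of nearly equal fold differed in MLL3. Among the 5 leading GRHL2 regions, MLL3 folds were 18.2 in the cluster, 15.1 at DSP, 7.87 at PKP1, 7.60 at PPL (the highest of its 3) and 4.86 in JUP. DSP, PPL and JUP had GRHL2 folds of 97.5, 92.4 and 84.5, but the MLL3 fold at JUP was lower than at PPL and that at PPL lower than at DSP. Set among the 1153 MLL3 regions on GRHL2 regions with a fold of 45.0 or more, the cluster region stood above 76.9%, DSP above 66.9%, PKP1 above 28.2% and PPL above 27.0% of them. With 1 library per factor, the counting error of these folds is unknown.

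**Figure D4:**
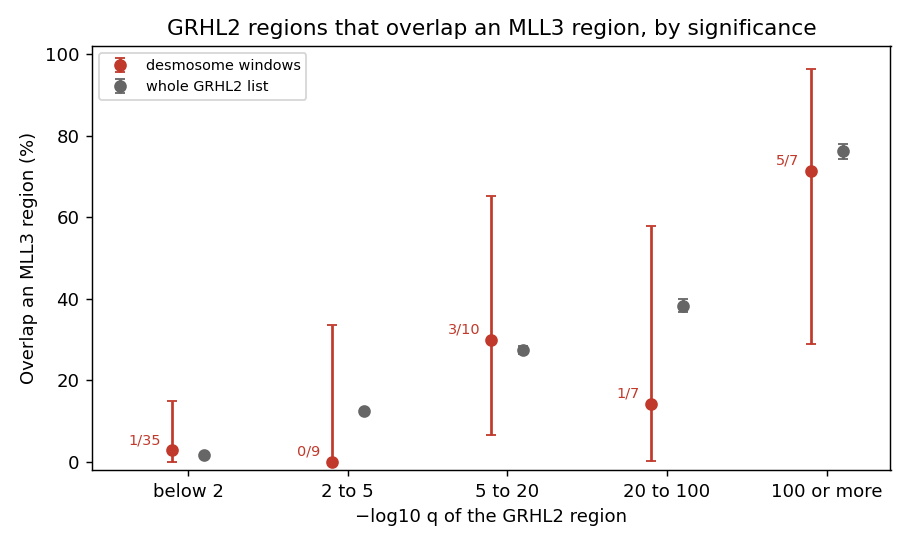
Share of GRHL2 regions that overlap an MLL3 region (vertical axis, percent) by −log10 q of the GRHL2 region. Red points are the desmosome windows with their counts and grey points the whole list, which includes them; bars are exact 95% intervals. The red intervals are wide, and each includes the grey point of its class.

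Most GRHL2 regions in the desmosome windows had no MLL3 region, as in the whole list. Of all 68, 10 overlapped an MLL3 region (14.7%, exact 95% interval 7.28 to 25.4%), against 6.15% of the list. Among those that reached a −log10 q of 2 the share was 9 of 33 (27.3%, interval 13.3 to 45.5%) against 24.5%. The first interval lies above its background and the second includes it. Regions of −log10 q of at least 2 made up 48.5% of the 68 against 19.7% of the list, and whether this accounts for the difference was not tested. Shared GRHL2 regions had a median fold of 35.9, and the 58 others 3.07, against 5.39 and 2.69 in the whole list. Above a −log10 q of 100, 5 of 7 regions were shared, against 76.2% of the whole list. From 20 to 100 it was 1 of 7 (whole list 38.3%), and from 5 to 20 it was 3 of 10 (27.5%). From 2 to 5 it was 0 of 9 (12.4%), and below 2 it was 1 of 35 (1.67%). For the 0 of 9 the exact interval reached 33.6%.

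At a −log10 q of 20 or more, 6 of 14 regions were shared, against 51.7% of such regions in the list. The 8 without an MLL3 region were spread over 4 of the 5 windows. They were 3 regions of the cluster (folds 32.4, 19.6 and 14.4), 1 in PPL (37.7), 2 at PKP1 (15.2 beyond the gene and 8.96 at its start) and 2 at JUP (8.86 at its start and 8.64 upstream). DSP had none. No class of −log10 q differed from its background beyond the counting interval, whereas the share over all 68 regions did.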

How the data were processed

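ChIP-seq peak lists of 2 libraries of KYSE510 cells, 1 for MLL3 and 1 for GRHL2, were used as deposited. The submitters' processing notes name BWA, Picard, MACS2, deepTools and hg19 as the genome build. Tool versions and parameters: not given in the sources used here. Deposited narrowPeak columns are the fold enrichment (a ratio), the −log10 p-value, the −log10 q-value, a score derived from them, which was not used, and the summit offset. Peaks were called per library against input, per the deposited region names. Without read counts in the files, the depth is unknown.

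Only regions of the assembled chromosomes (1 to 22, X and Y) entered. Summits were compared with the 5 windows, and an overlap of at least 1 bp counted as shared. Densities use the span from the first to the last region of each chromosome. Coordinates are 1-based. The overlap and distance code was checked on simulated intervals. The genes, windows and motifs were chosen with earlier results of these data known. Named were the highest regions per window, all MLL3 regions, regions within 2 kb of the 4 gene starts and GRHL2 regions of −log10 q at least 20 without MLL3; weaker neighbours named beside them were chosen after their values were seen. Python 3.11.15, pandas 2.3.3 and SciPy 1.17.1 were used. DSC1, DSG1, DSG4, PKP2, PKP3, PKP4, EVPL, PERP and CDSN were to be described only with an hg19 annotation, and no regions were assigned to them. Regions near DSC1, DSG1 and DSG4 are counted in the cluster window. Promoters were at hand for 5 of these 9 genes and were searched for the same motifs. The only match was TGANTCA in PERP. Alternatives were stricter thresholds, other flanks, membership by any overlap, other definitions of overlap and other distances from the gene start.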

Additional observations from a re-analysis of the deposited data

How the results depend on the processing

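Of 38 alternative settings, 30 left the value within its interval or a count within 1.5 times. The other 8 concerned GRHL2 thresholds and the definition of overlap. A minimum −log10 q of 2 or 5 left 33 or 24 of the 68 GRHL2 regions, with a median fold of 7.79 or 8.91 in place of 3.20, and a minimum fold of 5 left 23. The share of GRHL2 regions with MLL3 was 27.3% and 37.5% instead of 14.7% with the 2 q thresholds in both lists. The whole list also rose, from 6.15% to 24.5% at a −log10 q of 2. Its share at 5 or more was not determined. In its classes of 5 to 20, 20 to 100 and 100 or more, 27.5%, 38.3% and 76.2% overlapped an MLL3 region. The share of MLL3 regions with GRHL2 went from 92.3% to 61.5% (8 of 13) when summits had to lie within 100 bp. The whole list fell as well: 10327 of its 12150 MLL3 regions overlapped a GRHL2 region, and 5068 of these had a GRHL2 summit within 100 bp. Fewer regions enter at a stricter threshold by construction. The number of MLL3 regions was 12 to 15 under all 5 of its alternatives, 15 with flanks of 50 kb. With a minimum −log10 q of 2, GRHL2 lay at 3 of the 4 gene starts instead of 4. Read depth limits which regions are listed, to an unknown degree. No paired analysis was possible because there was a single library for each factor.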
